A study of Homo sapiens with 6 samples.

Results

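RNA polymerase II (Pol II) occupancy in SK-Hep1 cells that received siRNA against malic enzyme 2 (ME2) together with α-ketoglutarate (siME2+αKG) was set against that in cells given control siRNA (siCtrl). Every peak on chromosomes 1 to 22 and X of the 2 lists was a member of the comparison, 28949 in siME2+αKG and 31690 in siCtrl, which is 60639 of the 89811 such peaks in the series. SK-Hep1 is an established human cell line from a liver adenocarcinoma. All groups were cultured in DMEM with fetal bovine serum and antibiotics, and each had 1 ChIP library and 1 input library. The third group, siME2 without the supplement, shares the siCtrl library as its reference and its values are set beside those of siME2+αKG. The siRNA sequences, the dose of α-ketoglutarate and the times of exposure are not given in the sources used here. The siME2+αKG cells differed from siCtrl in both the siRNA and the supplement, and control siRNA with α-ketoglutarate was not analysed here, so the contributions cannot be told apart. The sample titles number the siCtrl and siME2 libraries 2 and give the siME2+αKG library no number. They do not say whether the libraries were prepared together, and a difference in preparation cannot be told apart either.

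Pol II transcribes all protein-coding genes. It is loaded at the promoter, often pauses just downstream of the start site, is released into the gene body and slows past the 3′ end before it leaves the template, so ChIP signal is usually highest at the start site and lower over the body and beyond the end. ME2 is a mitochondrial enzyme that turns malate into pyruvate. α-Ketoglutarate is a citric acid cycle intermediate, the partner of glutamate in transamination, and the co-substrate of the dioxygenases that demethylate histones and hydroxylate 5-methylcytosine, prolines and other targets.

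The filtered ChIP tags numbered 13006504 in siCtrl, 12955596 in siME2+αKG and 10445326 in siME2. Estimated fragment lengths were 211, 221 and 201 bp, and the lowest listed summits held 8, 8 and 7 fragments. Where 3 fragment numbers follow one another, they stand in the order siCtrl, siME2, siME2+αKG, and the bracket after them holds the relative log2 ratio of siME2+αKG and its interval. A height is the number of fragments over a peak's summit per 1000000 filtered ChIP tags. With 1 library a side there was no test, and every interval is a 95% Clopper-Pearson interval that covers counting error only. In a bulk culture, fewer cells with polymerase at a site and less polymerase per cell cannot be told apart. Of 19 hepatocyte markers, CYP2E1 alone had a promoter summit (50, 50 and 62 fragments), and the defining genes ALB, APOA1 and HNF4A had none in any library. Of 22 endothelial and mesenchymal markers, 13 had a summit in siCtrl and 13 in siME2+αKG, among them VIM (140 and 116 fragments), whereas PECAM1, CDH5 and VWF had none. The summed height of these markers was 64.0, 60.3 and 55.7 in siCtrl, siME2 and siME2+αKG. These sums are not relative to all promoters, and the markers with a summit differed between libraries. Over the 12 with a summit in both siCtrl and siME2+αKG, the summed fragments gave a log2 ratio of −0.08 (−0.23 to 0.07) relative to the median of all promoters. No fibroblast marker of 6 had a summit in either of the libraries compared, and of 10 leukocyte markers 1 had one in siCtrl and 2 in siME2+αKG.

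The promoters below are of genes with differences described here, 6 of them among the largest between matched summits. They are shown from RefSeq (GRCh38.p14, 250 bases before to 50 after the start site, each on the strand of its gene). The 3 lowest ratios for which RefSeq gave a sequence are at PITX1 (chr5:135034179-135034478, minus strand), BEX2 (chrX:103310941-103311240, minus) and A4GALT (chr22:42720821-42721120, minus). MDH1 (chr2:63588713-63589012, plus) is the malate or citric acid cycle enzyme with the lowest ratio. TRMT10B (chr9:37753555-37753854, plus), AMN (chr14:102922413-102922712, plus) and KDELR1 (chr19:48391502-48391801, minus) are 3 of the 4 highest. AMN had no summit pair within 500 bp of a start site, so the window printed for AMN does not hold the summits measured. Capitals mark the GC box (GGGCGG or CCGCCC) and the CCAAT box (CCAAT or ATTGG), and adjoining copies run together.
PITX1: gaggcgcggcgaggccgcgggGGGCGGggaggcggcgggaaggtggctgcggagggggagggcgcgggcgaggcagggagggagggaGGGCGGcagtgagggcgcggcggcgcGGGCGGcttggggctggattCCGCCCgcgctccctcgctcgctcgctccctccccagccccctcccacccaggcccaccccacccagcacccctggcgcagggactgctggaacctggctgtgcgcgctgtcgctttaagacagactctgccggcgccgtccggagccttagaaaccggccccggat
BEX2: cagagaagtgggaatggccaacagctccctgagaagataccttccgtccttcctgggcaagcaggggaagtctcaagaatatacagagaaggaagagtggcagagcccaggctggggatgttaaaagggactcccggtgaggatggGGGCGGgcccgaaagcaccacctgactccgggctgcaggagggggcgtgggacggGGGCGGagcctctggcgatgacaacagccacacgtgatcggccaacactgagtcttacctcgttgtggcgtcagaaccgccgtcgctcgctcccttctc
A4GALT: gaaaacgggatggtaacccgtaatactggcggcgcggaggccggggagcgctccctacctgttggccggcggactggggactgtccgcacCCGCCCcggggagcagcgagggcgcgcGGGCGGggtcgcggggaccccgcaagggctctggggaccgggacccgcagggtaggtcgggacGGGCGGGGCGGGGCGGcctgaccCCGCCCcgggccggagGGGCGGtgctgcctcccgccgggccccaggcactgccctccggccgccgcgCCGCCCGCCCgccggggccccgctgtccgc
MDH1: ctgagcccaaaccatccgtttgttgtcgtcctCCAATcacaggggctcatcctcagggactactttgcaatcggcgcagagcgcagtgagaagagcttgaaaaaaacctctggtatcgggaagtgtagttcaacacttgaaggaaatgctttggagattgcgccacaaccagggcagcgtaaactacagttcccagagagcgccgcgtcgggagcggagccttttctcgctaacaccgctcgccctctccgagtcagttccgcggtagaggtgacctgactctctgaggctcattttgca
TRMT10B: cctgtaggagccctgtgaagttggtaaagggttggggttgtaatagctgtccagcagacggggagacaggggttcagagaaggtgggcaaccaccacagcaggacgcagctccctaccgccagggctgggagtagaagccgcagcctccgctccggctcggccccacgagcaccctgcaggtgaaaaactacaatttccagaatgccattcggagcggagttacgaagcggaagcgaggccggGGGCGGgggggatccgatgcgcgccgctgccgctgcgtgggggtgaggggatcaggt
AMN: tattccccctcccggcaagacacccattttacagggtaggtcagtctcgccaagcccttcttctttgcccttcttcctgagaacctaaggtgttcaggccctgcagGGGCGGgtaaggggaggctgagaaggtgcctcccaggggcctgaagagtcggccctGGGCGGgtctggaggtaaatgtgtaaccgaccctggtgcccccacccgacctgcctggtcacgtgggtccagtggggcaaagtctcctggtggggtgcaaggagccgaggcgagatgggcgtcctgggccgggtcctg
KDELR1: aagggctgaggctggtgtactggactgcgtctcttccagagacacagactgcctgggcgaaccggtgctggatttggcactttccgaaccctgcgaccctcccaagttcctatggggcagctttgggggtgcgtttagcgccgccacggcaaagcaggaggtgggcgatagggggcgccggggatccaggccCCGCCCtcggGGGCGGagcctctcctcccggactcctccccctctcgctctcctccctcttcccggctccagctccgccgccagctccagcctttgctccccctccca
The window of A4GALT held 9 GC boxes, counting overlapping copies, and that of PITX1 held 4. MDH1 held none and had a CCAAT box. BEX2, AMN and KDELR1 held 2 GC boxes each and TRMT10B held 1. The GC content was 77.0% for PITX1, 81.0% for A4GALT and 61.3% for BEX2, against 54.7% for MDH1 and 63.7% to 67.7% for the windows of the 3 higher genes. Round the siCtrl summit measured at AMN, it was 68.5%.

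Promoter heights in siME2+αKG and siCtrl were close for nearly all genes. A promoter summit, one within 1 kb of an annotated start site, was found in both lists for 11896 of 20090 protein-coding genes, and the median log2 ratio was −0.13, a height of 0.915 of siCtrl. All values below are relative to that median. Their SD was 0.27 over genes, and the counting interval of a single gene reached a median of 0.57 to each side. At 1.5-fold or more from the median, 249 promoters were lower in siME2+αKG (2.09%) and 177 were higher (1.49%). The interval lay wholly below 0 at 110 promoters (0.925%) and above 0 at 76 (0.639%), 1.56% of all promoters together, where up to 5% may fall outside by counting error alone. The promoters nearest to the 1.5-fold limit were CNIH1 (−0.59, 56 fragments in siCtrl and 34 in siME2+αKG) and KLHL9 (−0.58, 79 and 48) on the lower side. On the higher side they were C4orf47 (0.59, 30 and 41) and ABCC6 (0.58, 11 and 15).

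**Figure D1:**
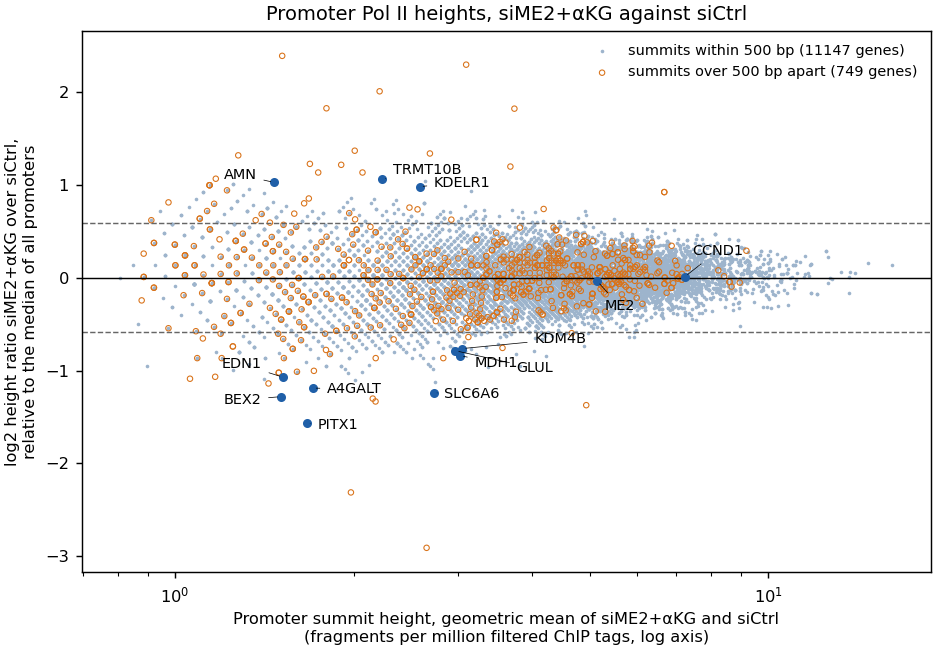
Each point is a protein-coding gene; the x axis is the geometric mean of its promoter heights in the 2 libraries (fragments per 1000000 filtered ChIP tags, log axis), the y axis its log2 height ratio relative to the median of all promoters, and dashed lines mark 1.5-fold. Orange circles are the 749 genes whose 2 summits lie over 500 bp apart, and CCND1 (0.01) and ME2 (−0.04) lie near the zero line while PITX1 (−1.57) is the lowest of the labelled genes.

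For 749 genes (6.30%) the 2 summits lay over 500 bp apart. The caller gave each peak a single summit, so at such genes different start sites, or different parts of a wide peak, were set against each other. This held for 6 of the 15 lowest promoters, among them ERBIN (−2.91), SCAF1 (−2.31) and RPL23A (−1.37), and for 13 of the 15 highest, among them PATZ1 (2.39) and NAB2 (2.3). The genes described next are those with summits within 500 bp, a limit set after the data had been seen. Of these 11147 genes, 214 were 1.5-fold or more lower and 139 higher, with intervals below 0 at 95 and above 0 at 58.

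PITX1, a homeobox transcription factor of hindlimb and pituitary development, had the lowest matched promoter height. Its summit held 39, 19 and 12 fragments (siCtrl, siME2, siME2+αKG), a relative log2 ratio of −1.57 (−2.64 to −0.60). The listed peak ran from 134369146 to 134370142 on chromosome 5 (hg19) in siCtrl, 997 bp, and was 406 bp wide in siME2+αKG. A weaker siCtrl peak downstream, of 425 bp and 14 fragments, was not listed in siME2+αKG. When the summit nearest to any start site was taken, that weaker peak stood for siCtrl and the ratio was −0.09.

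BEX2, an X-linked gene of the brain-expressed family, held 32, 16 and 12 fragments (siCtrl, siME2, siME2+αKG), a relative ratio of −1.28 (−2.37 to −0.29). SLC6A6, the taurine transporter, held 57, 31 and 22 (−1.24, −2.02 to −0.51). At both genes siME2+αKG was the lowest of the 3 libraries and siME2 lay between, an order favoured by choosing genes on the ratio of the other 2. A4GALT, the synthase of the glycolipid Gb3, held 35, 27 and 14 (−1.19, −2.20 to −0.26), and there siME2 stood near siCtrl. ARHGAP17, a GTPase-activating protein gene, held 55, 34 and 23 (−1.12, −1.89 to −0.40), and the clathrin adaptor HIP1R held 40, 22 and 17 (−1.10, −2.01 to −0.25).

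EDN1 encodes endothelin-1, a vasoconstrictor peptide. The summit at its start site held 30, 14 and 13 fragments (siCtrl, siME2, siME2+αKG), a relative ratio of −1.07 (−2.14 to −0.09). In siME2 there were 2 peaks there, with 14 and 13 fragments. A wider peak upstream held 39, 45 and 38 fragments, and a 2 kb window, which takes that peak, gave a relative ratio of 0.10. PMEPA1, an inhibitor of TGF-β signalling, held 31, 24 and 14 fragments (−1.01, −2.04 to −0.06). RTCB, the tRNA ligase, held 31, 20 and 14 (−1.01, −2.04 to −0.06).

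The other promoters among the 15 lowest were EEPD1, KANK3, DEF8, RHOBTB1, PLEKHN1 and INKA1, at −1.09 to −0.96. Over all 15, the siCtrl summits held 28 to 64 fragments with a median of 38, and the siME2+αKG summits 12 to 30 with a median of 17. Their siME2 ratios, which use the same siCtrl library, ran from −0.75 to 0.06. Further down the order stood LFNG, the Notch-modifying glycosyltransferase (51, 13 and 24 fragments in the same order; −0.95, −1.72 to −0.23), and PDGFA, a growth factor of the platelet-derived family (50, 41 and 25; −0.87, −1.62 to −0.15). At LFNG the siME2 library was the lowest, and at PDGFA it stood near siCtrl.

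The highest matched ratio was at TRMT10B, a tRNA methyltransferase gene, with 21, 31 and 40 fragments (siCtrl, siME2, siME2+αKG), a relative ratio of 1.06 (0.27 to 1.90). KDELR1, the receptor that returns proteins to the endoplasmic reticulum, held 25, 24 and 45 (0.98, 0.25 to 1.75). The siME2 ratio at KDELR1 was 0.30. AMN, the cubilin partner amnionless, held 14 fragments in siCtrl and 26 in siME2+αKG (1.03, 0.04 to 2.08) and had no promoter summit in siME2. With a window of 500 bp AMN had no summit pair, so these summits lie outside the AMN sequence printed above. TMEM67, a ciliary membrane protein gene, held 25, 29 and 47 (1.05, 0.32 to 1.81). GAGE12I (0.94) belongs to a family of near-identical copies and its reads are uncertain.

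HEATR1, a ribosome biogenesis factor, held 27, 31 and 43 fragments (siCtrl, siME2, siME2+αKG), a relative ratio of 0.81 (0.08 to 1.56). HSD17B7, an enzyme of cholesterol synthesis, held 24, 29 and 38 (0.80, 0.02 to 1.60). The myotonic dystrophy kinase gene DMPK held 27, 40 and 43 (0.81, 0.08 to 1.56), and there siME2 stood at 0.92. The others of the 15 highest were CCDC30, PHETA1, AGER, ZNF787, ABCC5, WASHC3 and RNF225, at 0.73 to 0.86. Over the 15, siCtrl summits held 14 to 39 fragments and siME2+αKG summits 26 to 59.

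**Figure D2:**
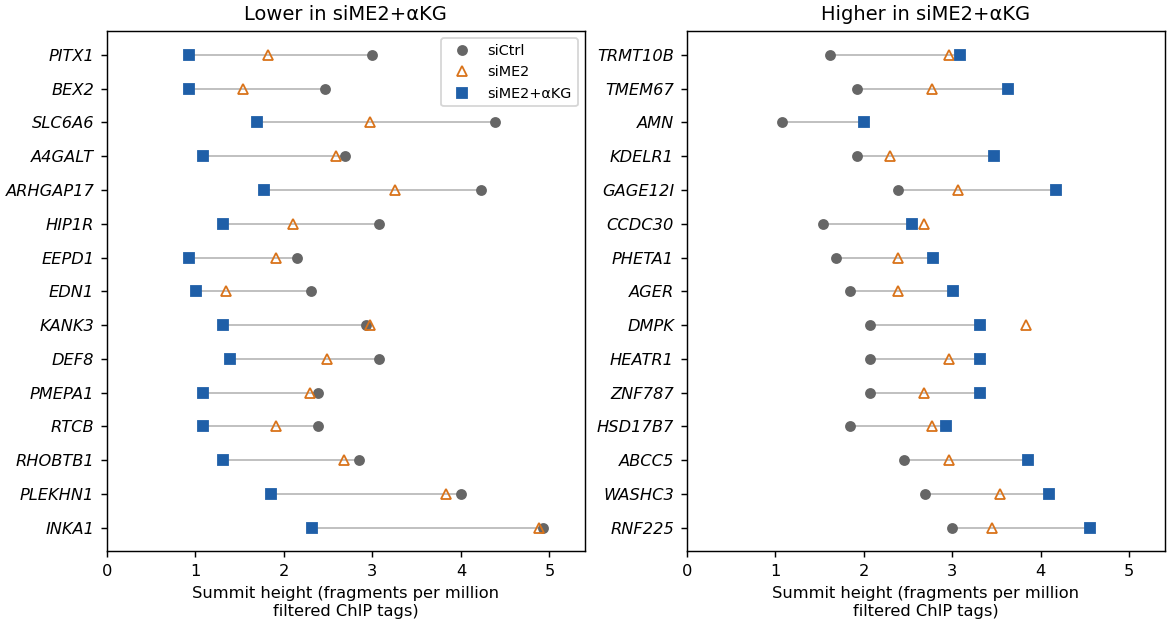
Summit heights (fragments per 1000000 filtered ChIP tags) in siCtrl (grey circles), siME2 (open orange triangles) and siME2+αKG (blue squares) at the 15 lowest (left) and 15 highest (right) promoters with matched summits; AMN has no siME2 summit. The siME2 height lies between the other libraries except at KANK3, where it is just above siCtrl, and at CCDC30 and DMPK, where it is above siME2+αKG. The promoters were chosen by the ratio of those other libraries, which favours a siME2 height between them, so its place is not evidence of a graded difference.

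ME2 and the cyclin D1 gene stood at the median. CCND1 spans 69455924 to 69469242 of chromosome 11 (hg19), and its promoter summit held 98, 73 and 90 fragments (siCtrl, siME2, siME2+αKG). Its relative ratio was 0.01 (−0.42 to 0.44), so a difference within those bounds was not detectable at this depth. In siCtrl 81.3% of the gene lay under listed peaks, against 73.8% in siME2+αKG and 67.0% in siME2. All listed peaks together covered 29.3 Mb in siCtrl, 26.1 Mb in siME2+αKG and 23.8 Mb in siME2, the same order. Whether the coverage of CCND1 differed beyond that was not tested. ME2 held 71, 56 and 63 fragments (−0.04, −0.55 to 0.47). Promoter occupancy does not check the knockdown, since siRNA acts on the transcript.

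Promoters were then read by 31 gene lists holding 1518 genes, each a pathway or family. Their relative medians ran from −0.15 to 0.06, and 29 of 31 lay within 0.1 of all promoters, where 49.9% of promoters were below 0. In siME2 over siCtrl, the same lists ran from −0.30 to 0.03. Among genes with a summit in both libraries, the cell cycle lists had medians of −0.03 to 0.05 in siME2+αKG. The G2/M list had a median of −0.03 (28 of 50 below) in siME2+αKG and −0.30 (40 of 47 below) in siME2. Replication licensing and fork genes had −0.02 (26 of 46 below) and −0.26 (29 of 42). Replication-dependent histones, many of which have near-identical copies, had 0.05 (14 of 32 below) and −0.28 (25 of 29), with summits at 42 genes in siCtrl and at 35 in each knockdown library. D-type cyclins, their kinases and the restriction point had 0.03 (10 of 25 below) and −0.07 (16 of 24).

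Of the cell cycle promoters, MCM6 and BUB3 had intervals off 0. MCM6, a subunit of the replicative helicase, held 52, 29 and 28 fragments (siCtrl, siME2, siME2+αKG), a relative ratio of −0.76 (−1.48 to −0.07), and was the only one of 46 replication genes with an interval below 0. E2F8, a repressor of the E2F family, held 40, 16 and 21 (−0.80, −1.63 to 0.00). BUB3, a spindle checkpoint gene, held 79, 67 and 103 (0.52, 0.08 to 0.96) and was the only one of 50 G2/M genes with an interval above 0. ECT2, which acts in cytokinesis, held 38, 17 and 24 (−0.53, −1.33 to 0.25). CDK2, the S-phase kinase, held 44, 36 and 56 (0.48, −0.11 to 1.09).

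Malate, pyruvate and citric acid cycle enzymes had a median of −0.03, with 23 of 44 below, and 1 interval below 0. That was MDH1, the cytosolic malate dehydrogenase, whose summit held 55, 36 and 28 fragments (siCtrl, siME2, siME2+αKG), a relative ratio of −0.84 (−1.55 to −0.16). The summit is shared with the divergent gene WDPCP, so the 2 genes cannot be told apart. The siCtrl peak was a single one of 1477 bp, while siME2+αKG had peaks of 778 and 669 bp there, the former with 27 fragments, and siME2 had peaks of 666 and 345 bp, the former with 21. The next by size were ME1, the cytosolic malic enzyme (24, 15 and 14 fragments; −0.64, −1.71 to 0.37), MPC1 of the mitochondrial pyruvate carrier (53, 30 and 33; −0.55, −1.22 to 0.11) and IDH2, which makes α-ketoglutarate from isocitrate (48, 25 and 30; −0.54, −1.25 to 0.14). The intervals of ME1, MPC1 and IDH2 held 0.

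Glutamine and α-ketoglutarate metabolism had a median of 0.03, with 11 of 24 below. GLUL, which makes glutamine from glutamate, held 53, 29 and 28 fragments (siCtrl, siME2, siME2+αKG), a relative ratio of −0.79 (−1.50 to −0.10), the single interval of the list below 0. ADHFE1, a mitochondrial enzyme that uses α-ketoglutarate, held 11, 8 and 20 (1.00, −0.13 to 2.21), with summits 519 bp apart. GPT2, the mitochondrial alanine transaminase, held 35, 29 and 38 (0.25, −0.45 to 0.96).

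The α-ketoglutarate-dependent dioxygenases had a median of 0.00, with 21 of 44 below and 21 above. Intervals lay below 0 at 3 of them, against 0.925% of all promoters, and above 0 at none. These were KDM4B, KDM3A and KDM2A, all histone demethylases, a grouping made after their values were seen. KDM4B, which acts on H3K9 methylation, held 54, 35 and 29 fragments (siCtrl, siME2, siME2+αKG), a relative ratio of −0.76 (−1.47 to −0.09). KDM3A, another H3K9 demethylase and a hypoxia target, held 92, 70 and 58 (−0.53, −1.03 to −0.04). KDM2A held 78, 57 and 47 (−0.60, −1.15 to −0.06), but its summits lay at different start sites. P3H2, a collagen prolyl hydroxylase, held 50, 36 and 30 (−0.60, −1.31 to 0.08). At some other demethylases, KDM4A, KDM5B, KDM6A and KDM3B, the values ran from 0.04 to 0.20 with intervals that held 0. They were picked after their values were seen, and those of the remaining demethylases on the list are not given.

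The lowest list medians belonged to developmental transcription factors (−0.15, 22 of 36 below) and to TGF-β targets and matrix genes (−0.14, 22 of 33 below). Their summed fragments gave −0.07 (−0.17 to 0.02) and −0.07 (−0.16 to 0.02), so the counting interval of each sum held 0. The developmental list stood at 0.00 with a window of 500 bp. ZEB2, a repressor of epithelial genes, held 39, 28 and 22 fragments (siCtrl, siME2, siME2+αKG), a relative ratio of −0.69 (−1.52 to 0.10), and MSX1 held 72, 50 and 46 (−0.51, −1.08 to 0.04). SMAD7, an inhibitor of TGF-β receptors, held 51, 49 and 30 (−0.63, −1.33 to 0.05), and fibronectin FN1 held 33, 26 and 22 (−0.45, −1.30 to 0.37). TIMP1, a metalloproteinase inhibitor, held 55, 48 and 37 (−0.44, −1.08 to 0.19). LAMC1, the laminin γ1 chain, went the other way with 77, 76 and 98 fragments (0.48, 0.04 to 0.93).

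At the other end were nucleotide synthesis enzymes (0.06, 19 of 26 above), the MYC network and ribosome biogenesis (0.06, 23 of 42 above), cytosolic ribosomal proteins (0.05, 46 of 77 above) and aminoacyl-tRNA synthetases (0.05, 14 of 20 above). Limited to summits within 500 bp, the MYC network list turned to −0.02. PRPS2, a phosphoribosyl pyrophosphate synthetase, held 26, 17 and 36 fragments (siCtrl, siME2, siME2+αKG), a relative ratio of 0.60 (−0.16 to 1.39), and the leucyl-tRNA synthetase LARS1 held 34, 33 and 45 (0.54, −0.14 to 1.23). Among chaperones (0.05, 21 of 36 above), HSP90AB1, the constitutive cytosolic HSP90, held 101, 82 and 123 (0.42, 0.03 to 0.81). HSP90B1, its counterpart in the endoplasmic reticulum, held 55, 45 and 70 (0.48, −0.05 to 1.02).

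Stress and signalling lists lay near 0. The ATF4 and amino acid response list had −0.02 in siME2+αKG (15 of 28 below) and −0.18 in siME2 (22 of 28 below). In it, ASNS, the asparagine synthetase, held 112, 72 and 79 fragments (−0.37, −0.80 to 0.06), and VLDLR, a lipoprotein receptor, 36, 20 and 17 (−0.95, −1.87 to −0.08). Immediate early genes had −0.05 and −0.12, with EREG, an EGF receptor ligand, at 40, 18 and 22 fragments (−0.73, −1.55 to 0.06). Hypoxia targets had −0.02, glycolysis enzymes 0.01, p53 targets 0.03, NF-κB and interferon response genes 0.03, and respiratory chain subunits 0.01. The other lists, among them lipid synthesis, proteasome subunits, NRF2 targets, splicing factors, chromatin regulators and the Pol II machinery itself, lay between −0.02 and 0.04. Promoters of 1115 long noncoding RNAs away from coding start sites had 0.01, with 537 below and 576 above.

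**Figure D3:**
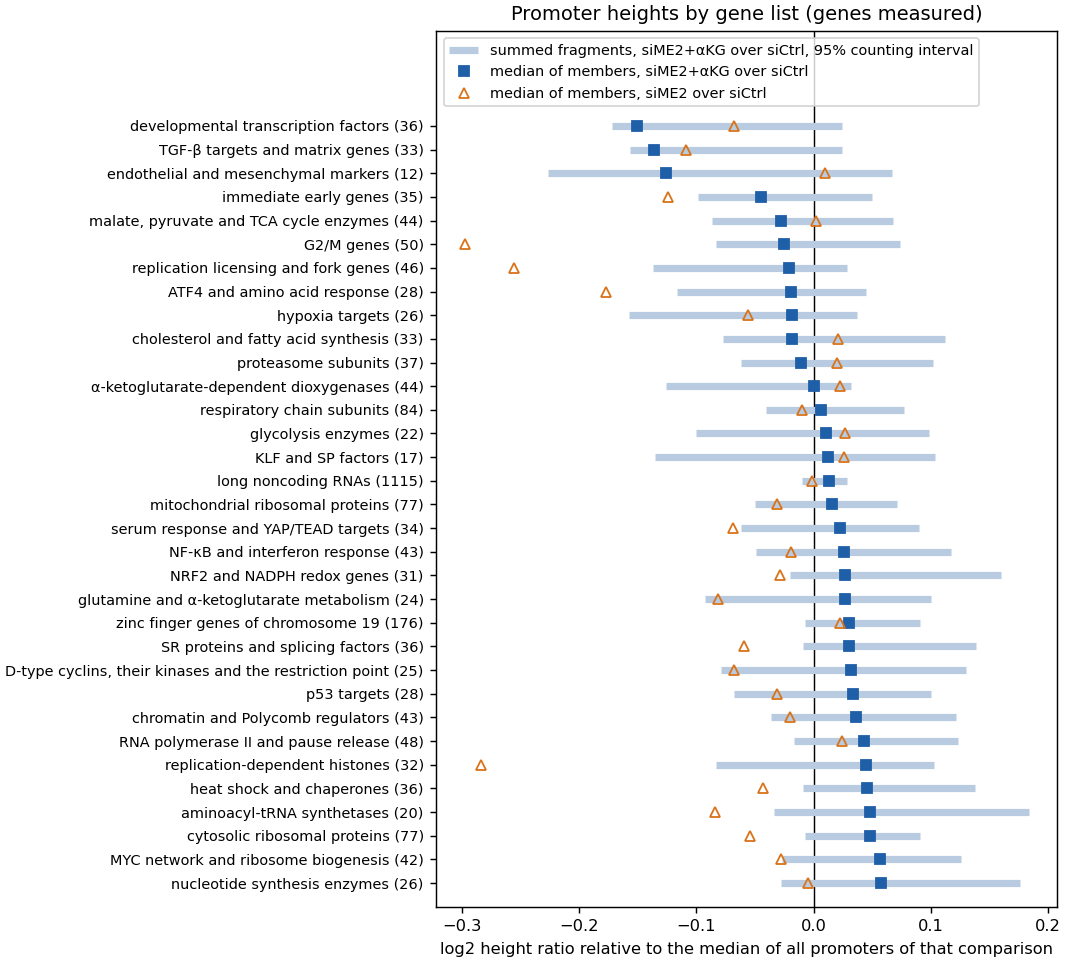
Blue squares are the medians of the members' log2 ratios of siME2+αKG over siCtrl, bars the 95% counting interval of their summed fragments, and open triangles the medians of siME2 over siCtrl, each relative to all promoters of its comparison, with the number of genes measured in brackets. The blue squares lie between −0.15 and 0.06, while the triangles of G2/M genes (−0.30), histones (−0.28) and replication genes (−0.26) stand apart on the left.

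The ratio of siME2+αKG to siCtrl declined with the GC content of the promoter. Over 10 equal groups by GC in 1 kb round the siCtrl summit, the relative median was 0.03 in the lowest group, with a GC content of 52%, and −0.08 in the highest, with 75%. Promoters 1.5-fold or more lower made up 4.96% of the highest group and 2.27% of the lowest. Those 1.5-fold or more higher made up 0.588% and 4.20%. In siME2 over siCtrl the order was the reverse, from −0.08 in the lowest group to 0.01 in the highest. The 89 matched summit pairs with an interval below 0 had a median GC of 71.0%, against 64.4% over all 9641 pairs and 63.8% for the 54 pairs with an interval above 0. Measured against promoters of the same GC group, PITX1 stood at −1.49, A4GALT at −1.11 and MDH1 at −0.87. The part of base composition in the differences was not tested.

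**Figure D4:**
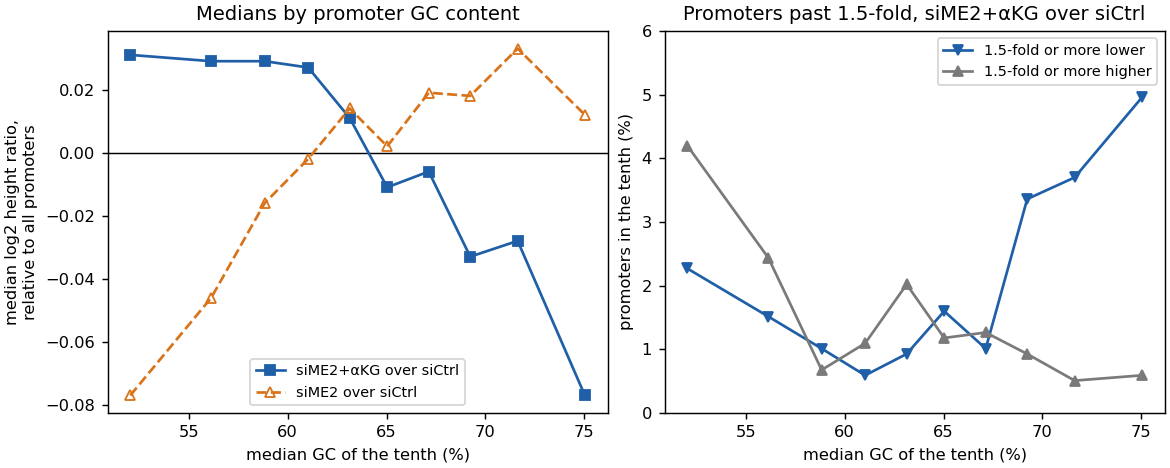
Left, median log2 height ratio relative to all promoters in 10 groups of promoters ordered by GC content (x axis, %), for siME2+αKG (blue) and siME2 (orange) over siCtrl. Right, the share of promoters 1.5-fold or more lower or higher in siME2+αKG; the lower share reaches 4.96% in the group of highest GC, where the higher share is 0.588%.

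Short sequence motifs were counted on both strands of the RefSeq promoters of 7730 of the 9641 matched pairs. The ETS motif CCGGAAG, bound by a family of growth-responsive factors, was in 20.2% of all of them, in 9 of 161 that were 1.5-fold or more lower (5.59%) and in 16 of 94 that were higher. Among promoters with 31 to 51 siCtrl fragments and a GC content of 61.8% to 73.3%, the middle range of the lower set, it was in 15.6% of 1083 and in 2 of 43 lower ones (4.65%). The GC box GGGCGG, bound by SP and KLF factors, was in 72.6% of all, 78.9% of the lower and 60.6% of the higher promoters. In the same range of fragments and GC content it was in 78.2% of 1083 and in 36 of 43 lower ones (83.7%). The CCAAT box was in 36.1%, 36.6% and 36.2%. The E-box CACGTG was in 10.4%, 8.07% and 14.9%, and the CRE motif TGACGTCA in 3.31%, 3.73% and 2.13%. The AP-1 motif TGACTCA was in 2.73%, 2.48% and 2.13%, the TATAAA motif in 5.23%, 7.45% and 7.45%, and TTTGAA, found in cell cycle promoters, in 8.85%, 6.83% and 13.8%. None of the 7 promoters printed above held the ETS motif.

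Peaks listed in only one of the 2 libraries were mostly weak. For 703 of 12679 genes (5.54%), siCtrl had a promoter peak at a start site that no siME2+αKG peak approached within 5 kb. The reverse held for 176 of 12258 (1.44%). The median was 14 fragments in the first set and 13 in the second, and the highest held 53 and 23. Of the genes, 244 and 94 kept a peak in the other library at one of their alternative start sites. With at least 20 fragments the sets shrank to 142 and 19 genes. The siCtrl list was the longer one, and its peaks covered 29.3 Mb against 26.1 Mb. The caller had scaled the signal of siME2+αKG alone, by 0.900, and the median promoter height there was 0.915 of siCtrl. The part of these in the 2 counts was not tested.

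By the authors' fold enrichment, the first set was led by DMC1, the meiotic recombinase (30 fragments in siCtrl), by ESPN and HES2, which share 1 peak (28), and by RERE (27), a nuclear receptor corepressor that kept a peak at another start site. ZNF350 (27), the endophilin gene SH3GL2 (26), RALGPS1 (29), INSM2 (25), PSD4 (25, with a peak kept at another start site) and the LIM homeobox gene LHX4 (26) followed. DMC1, ZNF350, SH3GL2 and LHX4 had no siME2 peak within 5 kb either. Over all genes the share in this set was 5.54%. Its list members included 7 of 48 developmental transcription factors with a siCtrl peak, at 11 to 19 fragments. These were GATA4, GATA6, HOXA7, HOXA9, HOXA13, PAX8 and TWIST1, of which GATA4 kept a peak at another start site. KLF and SP factors had 4 of 21 (KLF13, KLF15, SP5 and SP6), of which KLF13 kept a peak at another start site. Aminoacyl-tRNA synthetases had 3 of 20 (GARS1, SARS1 and YARS1), all with a peak kept at another start site. The KLF and SP list was drawn by symbol (KLF or SP followed by digits), so it also takes in genes that are not SP factors, such as SP100. The opposite set held SP100, 1 of 18 of that list, and YARS1, 1 of 20 of the synthetases. From the TGF-β list came 5 of 36 genes, LOXL2, LTBP1, LTBP2, SMAD3 and SMAD6, of which LOXL2 and SMAD3 kept a peak at another start site. LOXL2 and SMAD3 (11 fragments each, at another start site) and COL6A1 (16 fragments), a collagen gene, were in the opposite set. They were 3 of 34 genes of the TGF-β list with a siME2+αKG peak, against 1.44% of all genes. SMAD6, an inhibitory SMAD, was the highest of the 5 with 22 fragments and was not listed in siME2. From the histone list came 4 of 49 genes, H2AC15 and H2BC15 (14 fragments each), H2BC6 (16) and H4C4 (19), none listed in siME2. Also missing from siME2+αKG were GINS2 (24 fragments), 1 of 47 replication genes, and E2F1 (14), 1 of 26 restriction point genes. Neither was listed in siME2. The RNA demethylase gene FTO (16), 1 of 45 dioxygenase genes, was missing too but was listed in siME2. The shares of these 3 lists were below that of all genes. G2/M genes had 0 of 50 in this set and cytosolic ribosomal proteins 0 of 78.

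In the other direction, CCDC194 (23 fragments in siME2+αKG), a start site of TSC22D1 (22), the ciliary gene INTU (20) and the adhesion gene CADM2 (20) were among the leading genes. The interleukin gene IL1A (20), ZNF883 (20), ZNF792 (20), a start site of the bicarbonate transporter SLC4A8 (21) and a start site of FNDC3A (18) followed. INTU and CADM2 had no siME2 peak within 5 kb. The set held 1.44% of all genes, and most gene lists had none in it, among them the developmental, G2/M, histone and dioxygenase lists. At that share, a list of this size without a gene is not informative.

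Between the lists, 70.8% of siCtrl peaks (70.3 to 71.3) and 81.1% of siME2+αKG peaks (80.6 to 81.6) overlapped a peak of the other by at least 1 bp. The share was highest at promoters, 84.9% and 92.8%, and lowest in introns, 51.9% and 62.5%. The peaks not shared had a median of 13 fragments in each list, and 26.5% of those in siCtrl and 24.9% of those in siME2+αKG overlapped a siME2 peak. Among 16824 pairs that overlapped 1 peak only in each list, the siME2+αKG peak was narrower in 10165 and wider in 6623. At promoters the median width was 1030 bp in siCtrl and 945 bp in siME2+αKG, with 63.2% of pairs narrower. Peaks of 5 kb or more numbered 307 in siCtrl, 254 in siME2+αKG and 153 in siME2.

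Outside promoters, shared peaks had higher ratios of siME2+αKG over siCtrl than at promoters when all pairs were taken. The median relative ratio was 0.23 for 930 pairs within 5 kb past a gene's end, 0.21 for 745 in exons, 0.13 for 2081 in introns and 0.08 for 1532 in intergenic sequence, against 0.01 for 10413 at promoters. The summed fragments past gene ends gave 0.19 (0.16 to 0.22). In siME2 over siCtrl the values were 0.07 past gene ends, 0.14 in exons, 0.06 in introns and 0.01 at promoters. Gene by gene, the ratio at the past-end peak was above the ratio at the gene's own promoter in 598 of 846 genes, with a median difference of 0.22. The ratio at the exon peak was above it in 426 of 617 genes and that at the intron peak in 672 of 1061.

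Peaks outside promoters are low, with a median of 17 siCtrl fragments past gene ends against 51 at promoters, so the classes were also compared at like height. From 15 to 20 fragments, by the geometric mean of the pair, past-end peaks stood at 0.22 and promoters at 0.06. At 20 to 30 they stood at 0.20 and −0.03, at 30 to 45 at 0.18 and −0.03, and at 45 or more at 0.13 (40 pairs) and 0.01. Exon peaks stood at −0.01 in that last range (29 pairs). Selecting on a single library moved the values: with at least 20 siCtrl fragments the medians were 0.06 past gene ends, −0.01 in exons, −0.02 in introns and −0.02 in intergenic sequence, against −0.01 at promoters, so only past-end peaks then stood above promoters among these classes. With at least 20 siME2+αKG fragments they were 0.29 past gene ends and 0.28 in exons, and with at least 20 in both they were 0.17 and 0.08, against 0.00 at promoters. The fragment length was longer in siME2+αKG than in siCtrl (log2 ratio 0.07) and shorter in siME2 (−0.07). The local background also differed between siME2+αKG and siCtrl (medians of 1.40 fragments against 1.63). The part of either in these values was not tested.

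**Figure D5:**
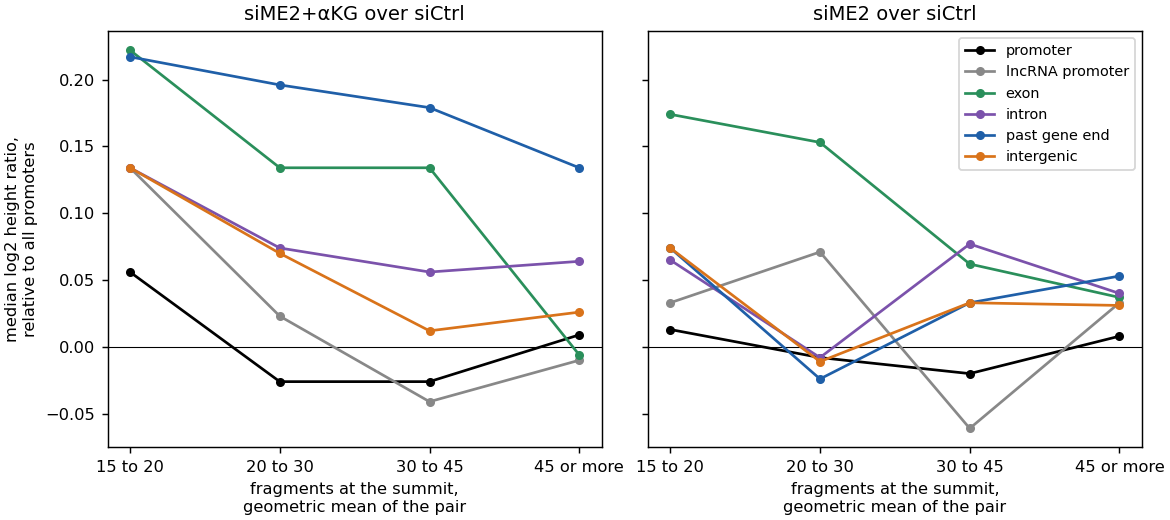
Median log2 height ratio relative to all promoters (y axis) of shared peaks in 6 genomic classes, by the geometric mean of the pair's fragments (x axis), for siME2+αKG (left) and siME2 (right) over siCtrl. Past gene ends (blue) the siME2+αKG medians fall from 0.22 to 0.13 and stay above those of promoters (black) in all 4 ranges.

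Among 6240 shared pairs outside promoters, the interval lay below 0 at 17 (0.272%) and above 0 at 51 (0.817%), 1.09% together. The lowest was in an exon of the unnamed gene ENSG00000284337 (chromosome 2, 110705020 to 110705527, hg19), with 37, 15 and 13 fragments (siCtrl, siME2, siME2+αKG), a relative ratio of −1.38 (−2.41 to −0.43). An intronic peak of the clock gene BMAL1 (chromosome 11, 13359852 to 13360138) held 27, 19 and 12 (−1.04, −2.15 to −0.01). The highest were 3 intergenic or noncoding peaks with 9 to 11 siCtrl fragments and 24 to 27 in siME2+αKG, at 1.40 to 1.55. A higher peak past the end of ZC3HAV1, an antiviral zinc finger gene, held 11, 16 and 23 fragments (1.20, 0.10 to 2.38). At tall past-end peaks the ratios were small: beyond VMP1, where the primary transcript of miR-21 lies, the summit held 119, 81 and 117 fragments (0.11, −0.27 to 0.49).

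By chromosome, the promoter medians ran from −0.05 to 0.05. The lowest were chromosomes 22 (−0.05), 15 (−0.05) and 9 (−0.05), and the highest were X (0.05), 7 (0.03) and 13 (0.02). In siME2 over siCtrl these stood at −0.01, −0.03 and −0.02, and at 0.02, 0.03 and 0.03.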

How the data were processed

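Pol II ChIP-seq peak lists of 1 library per group were used. Bowtie2 2.3.5.1, MACS2 2.2.6 and the build hg19 are named in the submitters' processing notes. Peaks came from MACS 2.2.7.1, per the file headers. Per the file headers, each ChIP was called against its own input at a p threshold of 1e-05, with 1 tag kept per position. The deposited pileup is a signal, the fragments over the summit. Only that of siME2+αKG had been scaled, by 0.900, and dividing by this returned fragments within 0.0055 of whole numbers. The deposited fold enrichment is a ratio to local background and the −log10 q, like the −log10 p, was deposited as called. The −log10 q filtered peaks, and the authors' fold ranked them and gave the local background.

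Heights were fragments per 1000000 filtered tags, and ratios were taken on the log2 scale from the deposited signal (Python 3.11.15, scipy 1.17.1). Local background was recovered from the pileup and that fold. Gene models were GENCODE 44 lifted to GRCh37. GC content was read from GRCh37. Pairs were formed from the highest summit within 1 kb of any start site. Intervals were tested on simulated data. There were no replicates, so no p-value was computed, and the intervals compare libraries, not conditions. A past-end peak lay within 5 kb of a coding gene's end and outside coding or lncRNA start sites. Starts of pseudogenes were not set apart.

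Named genes were CCND1, ME2, the 15 largest ratios per direction with at least 30 fragments over both libraries and an interval off 0, the 10 of largest authors' fold in one list only with −log10 q of at least 5, up to 4 per list, and 5 peaks per direction outside promoters. LFNG, PDGFA, the other demethylases named, VMP1, ZC3HAV1, the listed members of gene lists and the matched summits were chosen after their values were seen. Members and lists were chosen with earlier results of these data known. Of 31761 and 29021 peaks, 71 and 72 on other chromosomes were left out. Of the genes named by this rule, 1 is not reported here. Alternatives changed the window, fragment minimum, background, shift, height and GC groups, choice of summit, overlap and pairing.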

Additional observations from a re-analysis of the deposited data

How the results depend on the processing

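No paired analysis was possible because each group had 1 ChIP library. The counts of promoters depended most on which summit stood for a gene. With the summit nearest to a start site, 661 promoters were 1.5-fold or more lower and 610 higher, with intervals below 0 at 477 and above 0 at 429. With no shift by the median the counts were 526, 87, 368 and 23, and with at least 20 fragments in both lists 139 were lower and 92 higher. The other counts stayed within 1.5 times of the main ones under the 500 bp and 2 kb windows, background subtraction, height and GC groups, distinct pairs, fragment length and matched summits, the last chosen after seeing the data.

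Promoters with an interval off 0 whose sign turned were CHAT (0.42 with 500 bp, 0.069 with 2 kb, 0.64 with the nearest summit), ERBIN (0.26 with 500 bp and with the nearest summit), MC1R (−0.58 with 500 bp, −0.15 with the nearest summit), EDN1 (0.10 with 2 kb), PCID2 (−0.08), SCAF1 (0.29) and SRPK3 (−0.18), the last 3 with 2 kb. All of these but EDN1 had summits over 500 bp apart. GLUL stood at −1.79 with the nearest summit. ME2 and CCND1, whose intervals hold 0, also changed sign, ME2 to 0.033 with background taken off and 0.039 within GC groups, and CCND1 to −0.117 with no shift and −0.023 within height groups.

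Of 217 alternative list medians, 215 moved from the main median by no more than 0.5 of the width of the list's counting interval. The exceptions were developmental factors (0.003 with 500 bp) and the MYC network (−0.024 with matched summits). With 1 kb in place of 5 kb free of peaks, 1423 and 582 genes were listed in one list only, and with at least 20 fragments 142 and 19. Overlap of at least 50% of each peak left 50.9% of siCtrl and 55.7% of siME2+αKG peaks shared, and −log10 q of at least 5 in both gave 84.6% of siME2+αKG peaks. Pairing every peak gave 0.02 at promoters, 0.19 in introns, 0.26 past gene ends and 0.13 in intergenic sequence. Outside promoters, relative to their own median, chromosome 15 stood at −0.12, 13 at −0.061 and X at −0.032. The cause of these changes was not tested, except that a smaller set lowers counts. Counting intervals reached a median of 0.57 to each side of a promoter's ratio, less at tall summits.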
